A study of Mus musculus with 13 samples.

Results

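Rps4y2, Zfp91cntf and Gm6548 are 3 of the 35791 genes in the count tables of a mouse study of intestinal stem cells and Paneth cells. They were chosen by symbol because their levels had been seen to jump between libraries, so the levels below are a description and carry no test. Current annotation calls none of them a protein-coding gene. Rps4y2 (Entrez 66184) is now named Rps4l and is a transcribed pseudogene on chromosome 6, in spite of a symbol that points to the Y chromosome. Gm6548 (Entrez 625054) is a transcribed pseudogene on chromosome 17. Zfp91cntf (Entrez 664779), now Gm44505, is listed as a long noncoding RNA on chromosome 19 that joins 2 neighbouring genes.

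Stem and Paneth cells had been isolated from proximal small intestinal crypts, at 2 to 3 months in the young and 20 to 22 months in the aged group. All mice carried the Lgr5-eGFP-IRES-CreERT2 reporter, were labelled male and had a mixed C57Bl6/SV129 background. There were 3 young stem, 3 aged stem, 4 young Paneth and 3 aged Paneth libraries. No label ties replicates to separate animals, and the spread between libraries may thus be technical. Stem libraries were prepared by a standard Illumina protocol and Paneth libraries with the SMARTer pico kit, which means that a cell type difference and a kit difference cannot be told apart.

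Ribosomal protein S4 is a component of the small ribosomal subunit, encoded in the mouse by the X-linked gene Rps4x. Eef1a1 encodes the elongation factor that brings aminoacyl-tRNA to the ribosome. Abundant messages of this kind have left many processed pseudogenes, which are intronless copies made by reverse transcription, and a copy that is close to its parent can share sequencing reads with it. Zfp91 encodes a zinc finger protein with ubiquitin ligase activity that acts in noncanonical NF-kB signalling, and Cntf encodes ciliary neurotrophic factor, a cytokine that signals through gp130. A readthrough transcript runs from the first gene into the next and is spliced across both.

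Library totals ran from 4210439 to 8612228 reads in Paneth and from 8398966 to 19740104 reads in stem libraries. The stem markers Lgr5, Olfm4, Ascl2, Axin2, Smoc2 and Tnfrsf19 summed to 2593 to 4511 CPM (reads scaled to library size by TMM over all libraries) in stem and 388 to 1459 CPM in Paneth libraries. The 6 Paneth markers, Lyz1 and Defa24 among them, summed to 2995 to 67488 CPM in Paneth and 512 to 1910 CPM in stem libraries. The library labelled young stem 1 stood apart: Xist, the RNA of the inactive X chromosome, was at 12.6 CPM there and at 321 to 2875 CPM in the other 12, and the Y-linked gene Ddx3y was at 43.9 CPM against 0.638 to 3.32 CPM. In those 12 libraries both genes thus went against the label male. The levels of the loci and their relatives in young stem 1 are therefore printed below. Group means, tests and list counts include this library unless stated otherwise.

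The Rps4y2 locus lies at chr6:148354656-148355598 on the plus strand of GRCm38, as 1 exon of 943 bases (GENCODE M21), inside the span of Tmtc1. Its transcript aligned with that of Rps4x over 811 bases with 162 substitutions, an identity of 80.02%. The stretch of 80 aligned bases with the most substitutions is shown because it gives the extent of their divergence, with the substituted bases in capitals. The Rps4l stretch lies at chr6:148354745-148354824, plus strand, and the Rps4x stretch is coding sequence spliced from 2 exons within chrX:102187969-102188339, minus strand.
Rps4l: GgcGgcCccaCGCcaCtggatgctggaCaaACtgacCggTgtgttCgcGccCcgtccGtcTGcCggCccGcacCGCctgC
Rps4x: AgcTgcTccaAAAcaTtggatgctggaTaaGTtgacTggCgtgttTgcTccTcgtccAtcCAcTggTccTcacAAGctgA
These differed at 25 of 80 positions. The closest stretch differed at 6 of 80, at chr6:148355412-148355491, plus strand, for Rps4l and chrX:102185040-102185119, minus strand, in the coding part of Rps4x.
Rps4l: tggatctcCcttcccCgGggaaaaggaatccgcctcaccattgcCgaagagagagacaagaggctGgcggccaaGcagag
Rps4x: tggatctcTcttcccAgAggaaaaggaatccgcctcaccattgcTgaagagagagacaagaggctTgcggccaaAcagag
The longest run without a difference was 38 bases, and none of the 894 windows of 50 bases in Rps4l occurred in Rps4x. With 1 other gene, the pseudogene Rps4l-ps on chromosome 7, Rps4l shared 133 windows (14.9%) of 50 bases and 14 of 844 windows (1.66%) of 100 bases. Rps4l-ps was listed at 0 in all 13 libraries, as were 7606 of 7730 genes of the class pseudogene (98.4%), against 107 of 425 transcribed pseudogenes (25.2%). The read length is not given in the sources used here, so these windows describe the sequences and not the mapping.

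Gm6548 is much closer to its relative. Its transcript, at chr17:78850792-78851956 on the minus strand, is 1 exon of 1165 bases with no annotated coding part. Of these, 1163 bases aligned with Eef1a1 with 36 substitutions, an identity of 96.9%. The RefSeq span of Gm6548 is wider, chr17:78850504-78852544. Its part outside this transcript was not compared, so the identity and the windows below cover the transcript only. The most divergent stretch lies at chr17:78850911-78850990, minus strand, and is set beside coding sequence of Eef1a1 spliced from 2 exons within chr9:78478856-78479034, minus strand. Capitals mark the 7 substituted bases of 80.
Gm6548: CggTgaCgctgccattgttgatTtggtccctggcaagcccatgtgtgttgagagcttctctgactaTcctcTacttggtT
Eef1a1: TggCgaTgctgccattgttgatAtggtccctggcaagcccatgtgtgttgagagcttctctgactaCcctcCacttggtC
Elsewhere both genes were identical over 80 bases, at chr17:78851363-78851442 in Gm6548 and within chr9:78479492-78479660 in Eef1a1.
Gm6548 and Eef1a1: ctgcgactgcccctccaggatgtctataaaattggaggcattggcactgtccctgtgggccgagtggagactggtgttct
Eef1a1 held 143 of the 1116 windows of 50 bases in Gm6548 (12.8%), and the 16 genes that shared any window, Eef1a1 included, together held 269 (24.1%). No window of 100 bases, of 1066, was shared. Of the 16 genes, 11 had a row in the tables and 2 had any reads: Eef1a1 itself and Gm13456, another Eef1a1 copy on chromosome 2 that shared 130 windows (11.6%). The remaining rows were listed at 0, as was 98.4% of the class pseudogene, so a 0 need not mean that a copy gave no RNA. Whether reads of such copies were counted elsewhere was not tested.

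Zfp91cntf differs in kind, since its exons are those of its neighbours. GENCODE gives a joint transcript, classed as a target of nonsense-mediated decay, at chr19:12763660-12796126, minus strand, with 13 exons and 3221 bases, of which 2374 (73.7%) lie in exons of the main Zfp91 transcript and 847 (26.3%) in exons of Cntf. No base of it is its own. What sets it apart is a splice junction from within the last coding exon of Zfp91 to the first exon of Cntf, printed here with 30 bases from each side (chr19:12770177-12770206 and chr19:12765377-12765406, minus strand). Capitals mark the part in the Cntf exon.
Zfp91cntf junction: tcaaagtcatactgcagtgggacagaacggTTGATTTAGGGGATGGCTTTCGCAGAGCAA
All 30 bases on the Zfp91 side are coding in Zfp91, and 18 of the 30 on the other side are coding in Cntf. In the other direction, 3157 of the 5531 bases of the main Zfp91 transcript (57.1%) and 226 of the 1073 bases of the Cntf transcript (21.1%) lie outside the joint transcript. RefSeq starts Zfp91 and Zfp91cntf at the same base, chromosome 19 position 12796123. How the authors' counting split reads between them is not given in the sources used here.

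**Figure D1:**
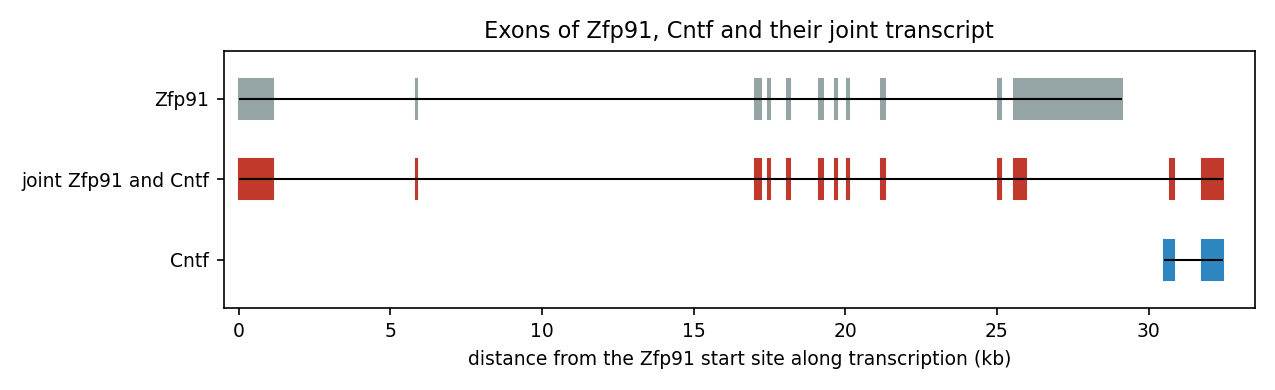
Exons (boxes) of Zfp91, the joint transcript and Cntf in GENCODE M21, against the distance in kb from the Zfp91 start site along transcription. The joint transcript ends its Zfp91 part inside the last Zfp91 exon and continues into both Cntf exons, so 57.1% of the Zfp91 transcript lies outside the joint one, while every base of the joint one lies in Zfp91 or Cntf.

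Rps4y2 followed age in both cell types. Young stem libraries 1 to 3 held 372, 308.5 and 393 reads, or 33.1, 12.2 and 13.4 CPM. Aged stem libraries 1 to 3 held 38.5, 36.5 and 4 reads, or 1.77, 1.56 and 0.205 CPM. All 3 aged libraries were below all 3 young ones, and aged stem 3 was the lowest. The mean was 19.5 ± 11.8 CPM in young and 1.18 ± 0.849 CPM in aged stem cells (SD, n = 3 each), 16.6-fold higher in young. On a log2 scale the ratio of aged to young means was -4.05 with all libraries and -3.44 without young stem 1. The lowest young stem library was 6.87-fold above the highest aged one.

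In Paneth cells the gap was wider. Rps4y2 stood at 11.9, 16.8, 14.2 and 24.2 CPM in young Paneth libraries 1 to 4, from 68, 32, 61 and 76 reads. Aged Paneth libraries 1 to 3 had 1, 0 and 4 reads, or 0.291, 0 and 0.485 CPM. Every young library lay far above every aged one. A count of 0 in aged Paneth 2 allows a level of up to 0.532 CPM (3 reads; counting error only). The group means were 16.8 ± 5.37 CPM (SD, n = 4) and 0.259 ± 0.244 CPM (SD, n = 3), a ratio of 64.8 that rests on 5 aged reads against 237 young ones. Without aged Paneth 3, which held 4 of those 5 reads, the log2 ratio went from -6.02 to -6.85. In bulk samples fewer cells of a type and less RNA per cell cannot be told apart.

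Of the 3 loci, Rps4y2 and Gm6548 had every aged stem library below every young one, as did 6.36% of the 17701 genes tested in stem cells. Rps4y2 alone did so in Paneth cells, as did 3.73% of the 14106 genes tested there. None of the 3 loci had every aged library above every young one, which 6.77% of genes had in stem and 4.15% in Paneth cells. Since the loci were chosen for this pattern, the shares are given as background only. A sharper split, with each young library more than 4-fold above each aged one (a limit set after the values were seen), was met in stem cells by Rps4y2 and S100a4 of 15315 genes (0.0131%). In Paneth cells 11 of 16225 genes (0.0678%) met it, among them the mucosal pentraxin genes Mptx1 and Mptx2, the lectin gene Reg3g and the transcription factor gene Hhex. Rps4y2 was in both sets, the only gene that was.

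Stromal markers moved in the same direction in stem libraries: the 6 genes, collagens among them, summed to 14.2 to 101 CPM in young and 3.87 to 5.45 CPM in aged ones, with none of them at 0 in every library of a group. In Paneth libraries their sums overlapped, at 61.6 to 104 CPM young and 52.1 to 84.9 CPM aged. The 6 Paneth markers summed to 5850 to 67488 CPM in young and 2995 to 25421 CPM in aged Paneth libraries, and the 6 enterocyte markers to 635 to 7511 CPM and 2284 to 11781 CPM. Both ranges overlapped between the ages, with no marker at 0 in every library of a group. The part of these cell types in the Rps4y2 difference was not tested. In young stem 1, the library with high Y-linked genes, Rps4y2 was 2.59-fold above the mean of young stem 2 and 3, while the 4 young Paneth libraries, with at most 3.32 CPM of Ddx3y, reached 24.2 CPM.

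Rps4x did not follow this pattern. It stood at 822, 957 and 1144 CPM in young and 795, 706 and 1093 CPM in aged stem libraries, which overlapped. Young Paneth libraries 1 to 4 had 160, 141, 201.3 and 96.9 CPM and aged ones 187, 81.9 and 115 CPM, again overlapping. The log2 change of Rps4x, aged minus young, was -0.18 ± 0.21 (SE) in stem (edgeR quasi-likelihood test, adjusted p = 0.827) and -0.23 ± 0.36 in Paneth cells (adjusted p = 0.860). The Paneth value turned to 0.26 when libraries were scaled by their totals, a scaling that moved the median over all genes to 0.57.

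As a share of the reads of both genes, Rps4y2 took 3.87%, 1.26% and 1.155% in young and 0.225%, 0.223% and 0.0188% in aged stem libraries. The exact 95% binomial intervals ran from 1.04% to 1.27% for young stem 3, the lowest of the young, and from 0.157% to 0.305% for aged stem 1. In Paneth cells it took 6.89%, 10.6%, 6.58% and 20.0% in young libraries and 0.156%, 0% and 0.421% in aged ones, where the interval of aged Paneth 3 reached 1.08%. The share was thus lower in every aged library than in every young one of the same cell type. How many reads of Rps4y2 came from Rps4x or other copies was not tested. Rps4y2 reads were whole numbers in 10 of 13 libraries (within 0.001) and multiples of 0.5 in all 13, whereas Rps4x reads were whole in 5. Rps4x held far more reads than Rps4y2, 24251.6 against 308.5 in young stem 2, so these counts are not directly comparable. Over the 13 libraries the Pearson correlation of log2(CPM + 0.5) between both genes was 0.11, given as a description of libraries that share kits and groups.

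Gm6548 was high in young stem cells and at its highest in young stem 2 and 3. It had 450.5, 2886.7 and 3369 reads in young stem libraries 1 to 3, or 40.03, 114 and 115 CPM. Aged stem libraries 1 to 3 had 16.5, 14.1 and 19.8 CPM from 355.2, 325.3 and 387.3 reads. Young stem 2 and 3 were nearly equal, young stem 1 lay between them and the aged libraries, and the groups did not overlap. The group means were 89.5 ± 42.9 CPM and 16.8 ± 2.90 CPM (SD, n = 3 each), a 5.32-fold higher level in young. The lower of young stem 2 and 3 was 2.85-fold above the highest of the other 4 stem libraries, young stem 1. Without young stem 1 the log2 ratio of aged to young was -2.76 instead of -2.41.

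Paneth libraries showed no such jump. Gm6548 stood at 6.11, 8.41, 9.52 and 8.29 CPM in young and 5.53, 9.92 and 6.91 CPM in aged ones. The groups overlapped, with means of 8.08 ± 1.43 CPM (SD, n = 4) and 7.46 ± 2.24 CPM (SD, n = 3). The lowest aged stem library, at 14.1 CPM, was above all 7 Paneth libraries.

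Eef1a1, the gene it resembles, was abundant everywhere and did not single out young stem 2 and 3. It stood at 7492, 6245 and 7304 CPM in young and 6396, 5739 and 7497 CPM in aged stem libraries. The log2 change with age was -0.11 ± 0.19 in stem cells (edgeR, adjusted p = 0.898) and -0.24 ± 0.40 in Paneth cells (adjusted p = 0.866), the latter turning to 0.29 with scaling by library totals. The Gm6548 share of the reads of both genes was 0.532%, 1.79% and 1.54% in young stem libraries. It was 0.258%, 0.245% and 0.264% in aged stem libraries, lower than in each young one. Exact 95% binomial intervals were 0.484% to 0.583% for young stem 1, 1.73% to 1.86% for young stem 2 and 0.238% to 0.292% for aged stem 3, covering counting error only. In Paneth libraries the share ran from 0.384% to 0.864% in young and from 0.351% to 0.999% in aged ones, above the aged stem share although the CPM were lower.

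Gm13456, the other copy with reads, stood at 162, 290 and 258 CPM in young and 143, 125 and 237 CPM in aged stem libraries. It was highest in young stem 2 and 3, but aged stem 3, at 237 CPM, was above young stem 1, and the groups overlapped. Its log2 change was -0.51 ± 0.27 in stem cells (edgeR, adjusted p = 0.637) and -0.04 ± 0.31 in Paneth cells (adjusted p = 0.977), and in Paneth cells it was 0.47 with scaling by library totals. Over the 6 stem libraries its correlation with Gm6548 was 0.79, and that of Eef1a1 was 0.27. These libraries share a kit, and the values describe them only. Gm6548 reads were whole in 5 of 13 libraries, those of Eef1a1 in 0 of 13, and the rest held fractions of reads. Eef1a1 held far more reads than Gm6548, so these counts are not directly comparable. How many reads of Gm6548 came from Eef1a1 or its copies was not tested.

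Zfp91cntf was nearly absent from the same pair of libraries, young stem 2 and 3. Young stem libraries 1 to 3 had 301.1, 20.06 and 22.17 reads, or 26.8, 0.790 and 0.748 CPM. Aged stem libraries 1 to 3 had 20.1, 23.6 and 24.5 CPM, from 430.9, 545.1 and 477.5 reads. Young stem 1 lay just above the aged libraries, so the split was within the young group and not between the ages. The lowest of those 4 libraries was 25.4-fold above the higher of young stem 2 and 3. The young mean was 9.44 ± 15.0 CPM and the aged mean 22.7 ± 2.34 CPM (SD, n = 3 each). The log2 ratio of aged to young means was 1.27 with young stem 1 and 4.88 without it, so that library decided its size.

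All 7 Paneth libraries held the locus at a similar level. Young Paneth libraries 1 to 4 stood at 34.0, 31.6, 38.3 and 44.0 CPM and aged ones 1 to 3 at 39.0, 38.6 and 43.4 CPM. The groups overlapped and their means were 37.0 ± 5.46 CPM (SD, n = 4) and 40.4 ± 2.66 CPM (SD, n = 3). With a limit of 1 CPM for a locus that is on, Zfp91cntf was on in 11 of 13 libraries, Rps4y2 in 9 and Gm6548 in 13. With a limit of 0.5 CPM Zfp91cntf was on in all 13, and with 2 CPM Rps4y2 was on in 7. Scaled by library totals, Zfp91cntf was on at 1 CPM in all 13 libraries as well, so its count of libraries that are on depends on the limit and the scaling. Gm6548 was on in all 13 libraries at each of these limits.

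**Figure D2:**
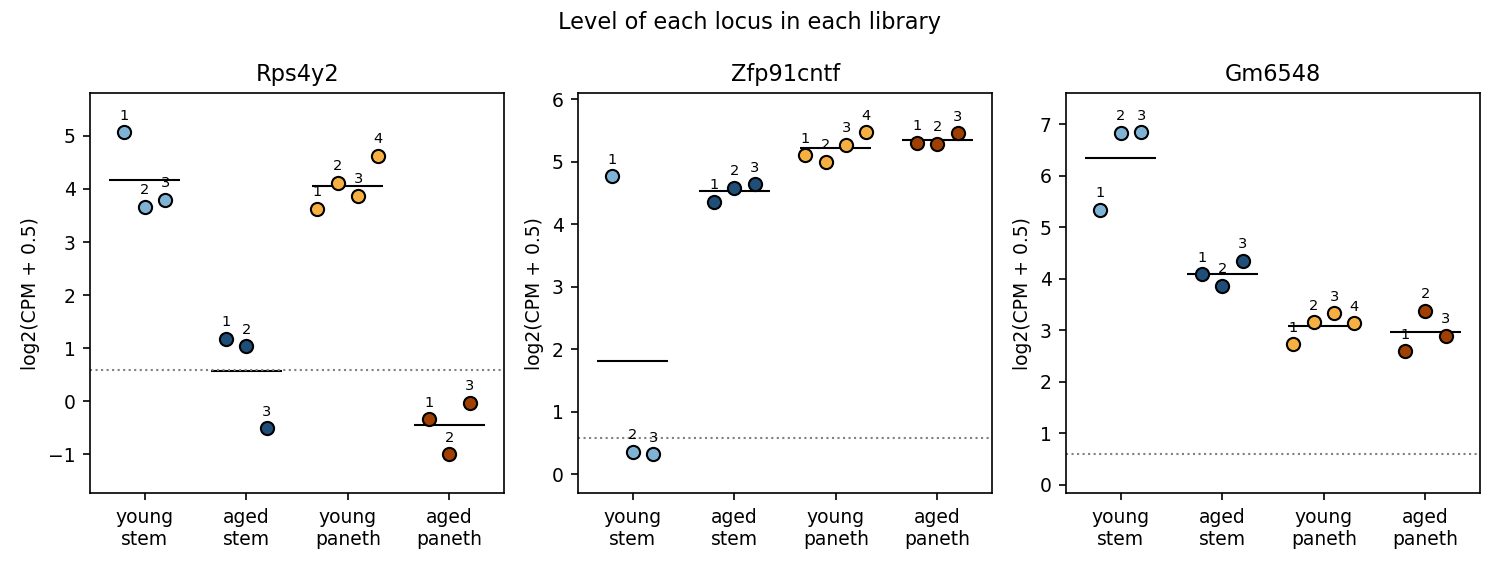
Level of Rps4y2, Zfp91cntf and Gm6548 as log2(CPM + 0.5) in each library, with the library's replicate number, the mean of the plotted values (line) and the level of 1 CPM (dotted). Rps4y2 is low in all 6 aged libraries, Zfp91cntf is low in young stem 2 and 3, and Gm6548 is highest in those 2 libraries.

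In young stem 2 and 3, where Zfp91cntf was low, Zfp91 itself was high. It stood at 43.7, 128 and 126 CPM in young and 43.5, 47.0 and 70.3 CPM in aged stem libraries. The lower of young stem 2 and 3 was 1.80-fold above the highest other stem library, aged stem 3. Zfp91cntf took 38.0%, 0.614% and 0.593% of the reads of both genes in young stem libraries 1 to 3. In aged stem libraries it took 31.6%, 33.4% and 25.8%. The exact 95% binomial intervals were 0.374% to 0.943% for young stem 2 and 23.9% to 27.9% for aged stem 3. In Paneth libraries the share ran from 37.2% to 42.0% in young and from 32.5% to 41.5% in aged ones. Zfp91 ran from 43.6 to 63.8 CPM in young and from 55.3 to 80.1 CPM in aged Paneth libraries. The correlation of Zfp91cntf with Zfp91 was -0.93 over the 6 stem and 0.72 over the 7 Paneth libraries, given as a description.

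Added together, Zfp91 and Zfp91cntf reached 70.4, 129.1 and 127 CPM in young and 63.5, 70.6 and 94.8 CPM in aged stem libraries. Young stem 2 and 3 were thus also the highest stem libraries for the sum. Paneth sums ran from 75.2 to 108 CPM in young and from 94.4 to 119 CPM in aged libraries, which overlapped. The log2 change of Zfp91 with age was -0.91 ± 0.38 in stem cells (edgeR, adjusted p = 0.585) and 0.31 ± 0.26 in Paneth cells (adjusted p = 0.730). Without young stem 1 the stem value was -1.23 and passed the test (edgeR, adjusted p = 0.0021). That fit set young stem 2 and 3, where Zfp91cntf was low, against the aged libraries, and 1332 genes passed in it. The pass is thus no separate support for the split. With young stem 2 and 3 both left out, an alternative added after the data were seen, the stem value turned to 0.28. Across alternatives that left out 1 library each, the stem value ran from -1.23 to -0.67.

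**Figure D3:**
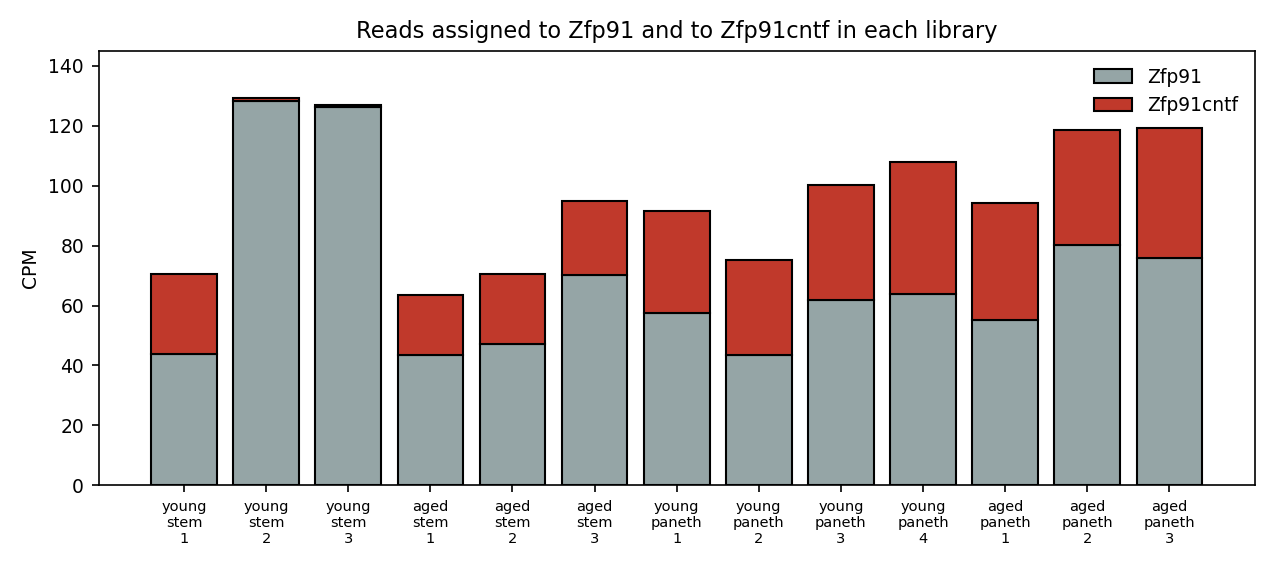
CPM of Zfp91 (grey) and Zfp91cntf (red), stacked, in each library. In young stem 2 and 3 the Zfp91cntf part is 0.790 and 0.748 CPM on top of 128 and 126 CPM of Zfp91, while in the other 11 libraries it is 25.8% to 42.0% of the reads of both.

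Cntf was at or under 1.22 CPM in every library, with 0 reads in aged stem 3 and in young Paneth 1, 2 and 4, 0.5 reads in aged Paneth 1, and 61.9 reads summed over the 3 young stem libraries. It stood at 0.445, 0.829 and 1.22 CPM in young stem libraries 1 to 3, so it was not low where Zfp91cntf was low. Its log2 change in stem cells was -0.51 ± 0.81 (edgeR, adjusted p = 0.893), and it turned to 0.05 without aged stem 3, the library with no read. In Paneth cells it was too low to be tested. Zfp91cntf reads were whole in 3 of 13 libraries, as were those of Zfp91.

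**Figure D4:**
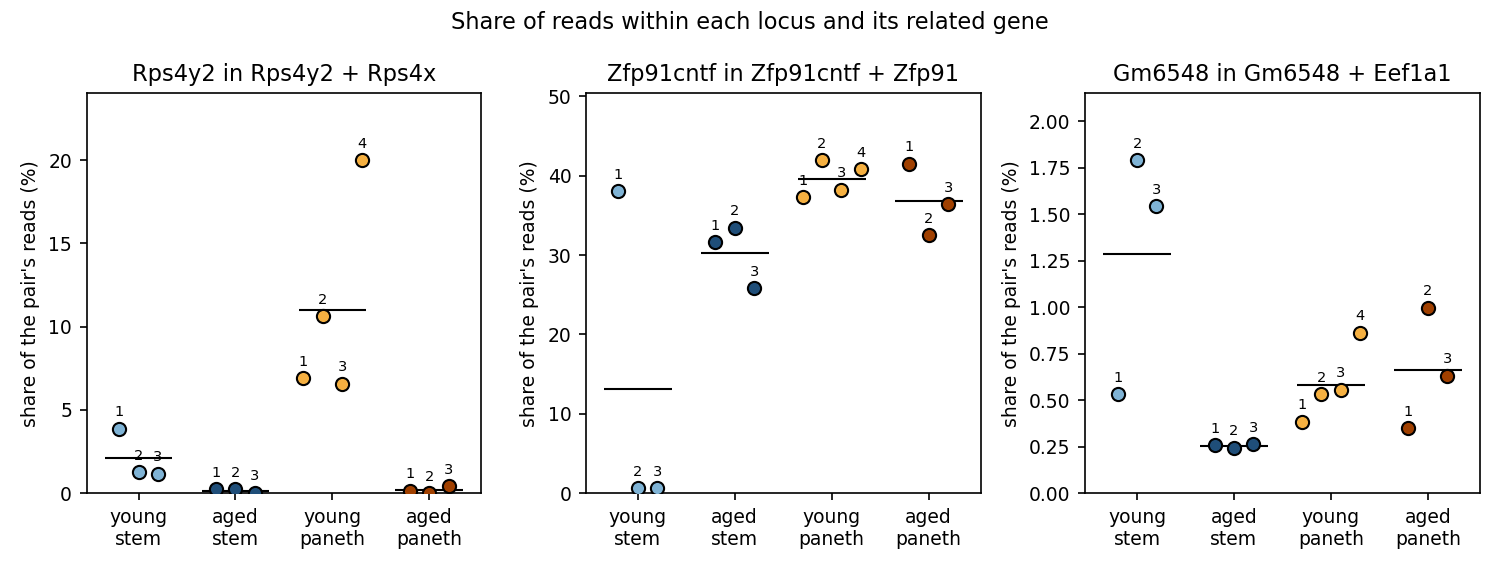
Share (%) of each locus in the reads of the locus and its relative, by library, with replicate numbers and the group mean (line); each vertical axis starts at 0 and has its own range. The Rps4y2 share is below 0.5% in all 6 aged libraries, the Zfp91cntf share is near 0.6% in young stem 2 and 3 only, and the Gm6548 share is above 1.5% in those 2 libraries only.

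The splits of Zfp91cntf and Gm6548 fell on the same libraries in opposite directions. Young stem 2 and 3 were both more than 2.5-fold above each of the other 4 stem libraries for 4 of 15315 genes (0.0261%), a limit set after the values were seen. These were Gm6548, Gm3002, Tef, a circadian transcription factor gene, and Tceal8. Both were more than 2.5-fold below for 12 genes (0.0784%), among them Zfp91cntf, Zcwpw2, Myzap, Gt(ROSA)26Sor and the cytokine genes Tnf, Ltb and Ccl20. Tnf stood at 13.2, 3.24 and 1.94 CPM in young stem libraries 1 to 3 and at 15.5 to 20.4 CPM in aged ones. Over the 6 stem libraries the correlation of Zfp91cntf with Gm6548 was -0.91, over the 7 Paneth libraries 0.02. Both values are descriptions of libraries that share their kit.

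The correlation of Rps4y2 over 13 libraries was -0.28 with Zfp91cntf and 0.34 with Gm6548. The genes whose levels were most like a locus were taken as the 5 with the highest Pearson correlation of log2(CPM + 0.5) over the 13 libraries, among 16136 genes with a mean of at least 1 CPM. For Rps4y2 these were the gasdermin gene Gsdmc2 (0.86), the cathepsin E gene Ctse (0.83), BC020402 (0.81), Dkk3 (0.78) and Mptx2 (0.78). For Zfp91cntf they were the insulin receptor substrate gene Irs2 (0.93), Zcwpw2 (0.93), Slu7 (0.90), Cast (0.90) and Spire2 (0.90). For Gm6548 they were Cacybp (0.96), Hus1 (0.93), Noa1 (0.92), Lrrc58 (0.92) and the translation initiation factor gene Eif3e (0.92). With Spearman's rank correlation only 1, 0 and 0 of the 5 stayed among the first 5.

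Neighbouring genes were tested for a change with age. Of the 18 nearest measured genes, 3 on each side of each locus, 17 were tested in stem and 14 in Paneth cells. None passed the edgeR quasi-likelihood test (smallest adjusted p 0.585 and 0.673), and 2 and 0 had an unadjusted p under 0.05. Over all genes 0 of 17701 passed in stem and 2 of 14106 in Paneth cells, so this says little about the neighbours. Without young stem 1 the neighbour Zfp91 passed in stem cells (edgeR, adjusted p = 0.0021), in a fit where 1332 genes passed. Tmtc1, which spans the Rps4y2 locus on the opposite strand, ran from 0.526 to 6.29 CPM over all libraries and changed by 0.21 ± 0.38 in stem (adjusted p = 0.905). Whether the counting used strand is not given in the sources used here. Eif2ak2, the interferon-induced kinase gene whose RefSeq span covers Gm6548, lies on the same strand as Gm6548. Strand alone thus cannot tell their reads apart where they overlap. Eif2ak2 had 38.4 to 73.7 CPM over all groups. Its log2 change was -0.11 ± 0.18 in stem cells (adjusted p = 0.898) and -0.12 ± 0.29 in Paneth cells (adjusted p = 0.910), the latter turning to 0.48 with scaling by library totals. In GENCODE the main Eif2ak2 transcript ends at position 78852564, outside Gm6548. Lpxn, whose RefSeq span overlaps the Zfp91cntf start, had group means of 0.877 to 2.15 CPM.

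The tables hold gene totals and no alleles, so the strain of origin of these reads was not tested. As a measure that touches on it, Nnt, which is partly deleted in C57BL/6J mice, stood at 21.4 to 82.6 CPM and Casp4, which carries a known defect in SV129 mice, at 11.1 to 31.2 CPM over all 13 libraries. Nnt was 69.4 to 82.6 CPM in young and 62.5 to 67.7 CPM in aged stem libraries, which did not overlap. Every aged library was below every young one for 6.36% of the 17701 genes tested in stem cells. In Paneth libraries Nnt was 21.4 to 73.6 CPM in young and 26.6 to 30.9 CPM in aged ones, which overlapped. Its means were 53.0 ± 22.4 CPM (SD, n = 4) and 28.7 ± 2.15 CPM (SD, n = 3). The log2 change was -0.89 ± 0.39 (edgeR, unadjusted p = 0.0487). Of the 14106 genes tested in Paneth cells, 1189 had an unadjusted p under 0.05 (edgeR). Neither gene passed the test in either cell type (edgeR; adjusted p 0.727 and 0.800 in stem, 0.590 and 0.739 in Paneth cells for Nnt and Casp4). Neither gene was at or near 0 in any library, but such gene totals do not show which alleles were present.

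Genes of the wider groups to which the relatives of these loci belong were counted by direction. No member passed the test with young stem 1 included. Of 32 small ribosomal subunit genes tested in stem cells, 19 had a higher and 13 a lower value in aged cells, with a median log2 change of 0.05, beside a median of -0.02 over all 17701 genes. In Paneth cells 3 were higher and 29 lower, with a median of -0.28 beside -0.00 over 14106 genes. The large subunit had 32 of 47 higher in stem (median 0.06) and 45 of 46 lower in Paneth cells (median -0.30). Rps13, at -0.74 ± 0.28 in Paneth cells, had the smallest adjusted p of both lists there (edgeR, 0.555). These Paneth directions depended on the scaling: with library totals the median over 14106 genes became 0.57, and 29 small subunit genes were higher (median 0.23) and 44 large subunit genes were higher (median 0.23). Relative to that median both lists stayed on the lower side.

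The elongation factor list also holds Eef2k, Eef1e1, Eef1akmt1 and Mettl13, which are not elongation factors themselves. Of its genes, 2 were higher and 8 lower of 10 in stem (median -0.09). In Paneth cells 2 were higher and 7 lower of 9 (median -0.23). In the CNTF pathway 8 of 13 were higher in stem (median 0.10) and 6 of 10 in Paneth cells (median 0.19). Socs3, the feedback inhibitor of this pathway, stood at 0.43 ± 0.17 in stem (edgeR, adjusted p = 0.566) and 0.91 ± 0.41 in Paneth cells (adjusted p = 0.590). Other members went the other way. Lifr, at -0.70 ± 0.27, had the smallest adjusted p of this list in stem cells (edgeR, 0.559). Il6st stood at -0.69 ± 0.37 in Paneth cells (edgeR, adjusted p = 0.629). Of the noncanonical NF-kB genes, Zfp91 among them, 9 of 13 were higher in stem (median 0.22) and 7 of 13 in Paneth cells (median 0.05). Map3k14, the kinase at the head of that pathway, stood at 0.44 ± 0.26 in stem (edgeR, adjusted p = 0.661) and -0.96 ± 0.51 in Paneth cells (adjusted p = 0.629). With library totals the Paneth medians were 0.30 for the elongation factor list, 0.79 for the CNTF pathway and 0.63 for the NF-kB genes, beside the 0.57 of all genes. Over all genes, edgeR called 0 of 17701 in stem cells (0.0%; 1477 at an unadjusted p under 0.05; DESeq2 126) and 2 of 14106 in Paneth cells (0.0142%; 1189 unadjusted; DESeq2 114). Both were lower in aged Paneth cells: Mptx2, and Rps4y2 itself, whose call is no support because it was chosen on this contrast.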

How the data were processed

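RNA of 13 libraries was analysed: 3 young stem, 3 aged stem, 4 young Paneth and 3 aged Paneth. The authors deposited 1 table per library under the column name FPKM, but the values have the form of estimated counts (reads per gene, with shared reads divided), since 69.8% to 77.5% of the entries below 20 differ from a whole number by at most 0.001. The mm10 genome and DESeq are named without a role, per the submitters' processing notes. The aligner, counting tool, annotation and read length were not given in the sources used here. The 36186 rows were summed by Entrez ID to 35791 genes. CPM, tests and binomial intervals used these totals rounded to integers, and shares used them unrounded. A spreadsheet had turned 27 symbols into dates, which were restored.

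CPM were scaled by TMM over all 13 libraries. Aged was compared with young within each cell type by edgeR 4.0.16 quasi-likelihood tests (R 4.3.3, filterByExpr, Benjamini-Hochberg adjusted p under 0.05), tested on simulated data. Alternatives were other scalings, no filter, DESeq2 1.42.0, a replicate block, 1 fit of all libraries and each library left out. ± is SD for CPM and SE for log2 changes. Depth ran from 4210439 to 19740104 reads, and intervals (exact binomial, 95%) cover counting error only.

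Transcripts and exons are GENCODE M21 and gene positions RefSeq, both GRCm38. The gene table matched 32961 Entrez IDs. Local alignments used Biopython 1.88. Loci and lists were chosen with earlier results of these data known. Named were the loci, their family genes, 3 neighbours each side, the 5 most like genes by correlation, check genes for sex, cell type and strain, and up to 4 members a list with the smallest p, of which some are printed. The gene table gives no descriptions, so Eef1a1 was taken as the relative of Gm6548 by sequence identity, and its copies by shared windows. Ren2 was not analysed here.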

Additional observations from a re-analysis of the deposited data

Results flagged for a closer look

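Cntf in young Paneth 3 stood at 0.464 CPM while the other 3 young Paneth libraries were at 0, which set this library far from the rest of its group. The value rests on 2 reads. The limit for such a gap is meant to be passed by chance in about 1 in 20 groups, and that rate was not checked for counts this low.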

How the results depend on the processing

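In stem cells the count of genes past the threshold, 0 with edgeR, was 11 without the filter, 126 with DESeq2, 5 in a fit of all 13 libraries and 211 with young stem 2 and 3 left out, an alternative added after the data were seen. Leaving out 1 library gave 0 to 1332 genes, with 1332 without young stem 1 and 46 without young stem 3. In Paneth cells the count of 2 became 12 with library totals, 11 without the filter, 114 with DESeq2 and 47 in a fit of all 13 libraries. Leaving out 1 library gave 0 to 20, with 20 without aged Paneth 1, 6 without young Paneth 4, and 0 without young Paneth 1, young Paneth 3, aged Paneth 2 or aged Paneth 3.

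With the replicate number as a block, 15 genes passed in stem cells and 0 in Paneth cells, where the fit drops young Paneth 4. Deviations of same-numbered libraries correlated at 0.01, -0.14 and 0.15 in stem and -0.04, -0.39 and -0.11 in Paneth cells. With so few libraries in a group, these values cannot show whether same-numbered libraries share an animal or a batch.

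The log2 changes that turned sign did not pass before or after. With young stem 2 and 3 left out these were Rps4x 0.061, Zfp91 0.28, Cntf 0.45, Eif2ak2 0.027 and Gm13456 0.042 in stem cells. With library totals they were Rps4x 0.26, Eef1a1 0.29, Eif2ak2 0.48 and Gm13456 0.47 in Paneth cells, and with the replicate block Eif2ak2 0.0064 there. Leaving out 1 library gave, in stem cells, -1.09 to 0.049 for Cntf and -0.21 to 0.043 for Eif2ak2. In Paneth cells it gave -0.61 to 0.00038 for Rps4x, -0.24 to 0.052 for Eif2ak2 and -0.18 to 0.14 for Gm13456. The Paneth log2 ratios of aged to young were 0.69 for Zfp91cntf and 0.48 for Gm6548 with library totals, against 0.13 and -0.12, beside a median of 0.57 over all genes with that scaling. Leaving out 1 library gave -0.38 to 0.059 for the Gm6548 ratio in Paneth cells, turning sign without aged Paneth 1. With library totals Zfp91cntf was on in 13 libraries instead of 11. Few reads limit Rps4y2 in aged Paneth cells, with 5 reads in 3 libraries.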
